A study of Saccharomyces cerevisiae with 10 samples.

Results

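The autophagy genes described here are the 36 genes on the array whose current symbol is ATG followed by a number, out of 5325 deletion strains with a named gene. They were taken by symbol alone, after each symbol of the probe annotation had been updated through its gene number. By known role, 22 of them belong to the core machinery that every form of autophagy in yeast uses or that bulk autophagy uses, 13 serve selective autophagy, and ATG26 is in neither group. ATG6 and ATG24 are listed today as VPS30 and SNX4 and are described with the other pathway genes, and ATG44 is not analysed here.

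Autophagy encloses cytoplasm in a membrane sac, the autophagosome, and delivers it to the vacuole, the yeast counterpart of the lysosome, where it is broken down. In bulk autophagy, which starvation induces, the sac takes up cytoplasm without choice. In selective autophagy a receptor protein ties a particular cargo, such as a mitochondrion or an aggregate of vacuolar enzymes, to the scaffold protein Atg11 and to Atg8 on the growing membrane. The delivery of aggregated vacuolar enzymes in growing cells is the cytoplasm-to-vacuole targeting pathway, called Cvt. Benomyl, the drug of the study, depolymerizes microtubules and so disturbs the mitotic spindle.

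The study measured how each deletion strain of Saccharomyces cerevisiae fared in benomyl. A pool that the labels give as 5896 heterozygous diploid knockout strains was sporulated, and MATa haploids were selected at 30 °C on magic medium, with or without the drug. The DNA tags that identify the strains were amplified from genomic DNA of both pools and hybridized together to a Hopkins-TagArray. There were 10 arrays, 1 at each of 0, 1, 5, 10, 15, 20, 25, 30, 35 and 40 µg/ml, and on the 0 µg/ml array neither pool had drug. The arrays up to 10 µg/ml had 2 days of selection and the 15 µg/ml array had 3 days. All arrays of higher dose had 4 days, so dose and days rose together over the whole course. Of dose and days, only dose differed among the 2-day arrays and among the 4-day arrays. The deposited ratios of the 10 µg/ml array came in finer steps than those of all other arrays. The part of this difference in the values at 10 µg/ml was not tested. All strains share the haploid-convertible background, each carries 1 deletion, and no dose has a replicate array.

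Every value is a log2 ratio set relative to the median of its array, so 0 is the median strain. The undrugged pool was the likely numerator and the drugged pool the denominator, because the labels give Cy5 to the former and Cy3 to the latter and the scanner software divides Cy5 by Cy3 by default. A negative value then means that a strain was relatively more abundant in the drug pool, and a positive value that it was scarcer there. The sources used here do not name the numerator, and all signs would turn if it were the other pool. The spread across all strains widened with dose, from an SD of 0.506 at 0 µg/ml to 1.46 at 40 µg/ml, with 0.890 at 5 µg/ml. Of the 36 ATG strains, 30 had 2 spots and 6 (ATG3, ATG4, ATG8, ATG9, ATG14 and ATG31) had 12 spots, averaged into 1 value per array. The lowest deposited ratio of any of their 132 spots was 0.03, above the lowest step of 0.01 that 9 of the arrays can show.

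The most visible feature was a dip at 5 µg/ml that took in some autophagy strains and left out others. On that array 9 of the 36 strains (25.0%) were at least 2-fold below the median strain, where 12.1% of all strains were, and 2 (5.56%) were at least 2-fold above it, where 6.29% of all strains were. The 9 low strains lacked ATG1, ATG2, ATG8, ATG9, ATG11, ATG13, ATG14, ATG20 or ATG32. All 9 were still below the median at 10, 15 and 20 µg/ml, and all 9 were nearer to it at 10 than at 5 µg/ml. A return of that kind was common among all strains: of the 643 that were at least 2-fold below at 5 µg/ml, 497 (77.3%) were nearer to the median at 10 µg/ml. All 9 had the lowest value of their course on the 5 µg/ml array, which has no replicate.

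**Figure D1:**
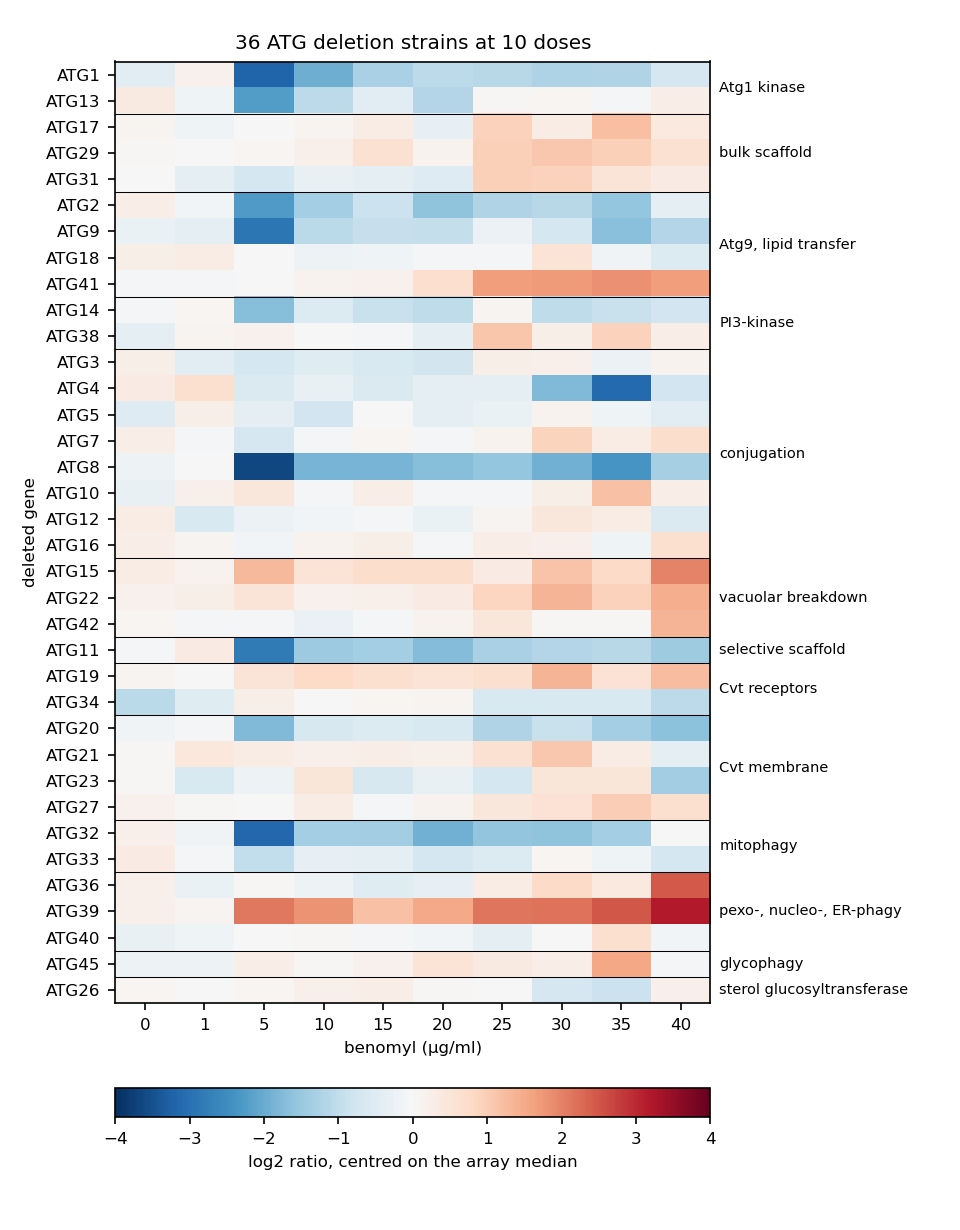
Log2 ratio, centred on the array median, of the 36 ATG deletion strains (vertical axis, grouped by role) at the 10 benomyl doses (horizontal axis, µg/ml). Blue is below and red above the median strain. The column at 5 µg/ml holds 9 strains at least 2-fold below, and ATG39 is at least 2-fold above from 5 µg/ml on.

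Autophagy starts with the Atg1 kinase and its activating partner Atg13. The ATG1 strain (YGL180W) was at −0.46, 0.16, −3.21, −1.94, −1.29, −1.06, −1.12, −1.25, −1.22 and −0.68 from 0 to 40 µg/ml. It lay 9.24-fold below the median strain at 5 µg/ml, 38th lowest of 5325 strains, and stayed below the median on every array with more drug. The ATG13 strain (YPR185W) was at 0.35, −0.17, −2.23, −1.06, −0.45, −1.16, 0.05, 0.07, −0.09 and 0.28. Its values near the median strain from 25 µg/ml on are means of spots that disagreed: the spot in the first section of the array was at 0.49 to 0.72 on these 4 arrays, and that in the second at −0.66 to −0.16. On the array without drug these spots were at 1.42 and −0.72, and at 5 µg/ml both were low, at −2.13 and −2.34. Bulk autophagy adds a scaffold to this kinase, made of Atg17, Atg29 and Atg31, and none of these strains was among the 9 low ones. ATG17 and ATG29 were at −0.03 and 0.08 at 5 µg/ml, and ATG31 at −0.70.

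ATG29 had its largest value at 30 µg/ml and ATG31 at 25 µg/ml. The ATG29 strain (YPL166W) was at 0.04, 0.02, 0.08, 0.22, 0.62, 0.14, 0.96, 1.08, 0.96 and 0.59 from 0 to 40 µg/ml. The ATG31 strain (YDR022C) was at 0.01, −0.36, −0.70, −0.31, −0.39, −0.53, 0.95, 0.92, 0.51 and 0.33. Both strains were above the median on each of the arrays from 25 to 40 µg/ml, and ATG31 was below it from 1 to 20 µg/ml. ATG17 rests on 2 spots that disagreed: its fitted change with dose was −1.12 ± 0.30 (SE) in the first section of the array and 2.74 ± 0.61 in the second, so no course is read for it.

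Atg9 is the membrane protein of the vesicles that seed the autophagosome, Atg2 passes lipid into the growing membrane, and Atg18 binds phosphoinositide beside Atg2. At 5 µg/ml ATG9 was at −2.90, ATG2 at −2.26 and ATG18 at 0.01. The value of ATG18 is the mean of spots that disagreed, at 0.72 in the first section and −0.70 in the second. ATG2 stayed at −1.61 to −0.86 between 10 and 35 µg/ml and was at −0.37 at 40 µg/ml. ATG9 was nearer to the median at 25 µg/ml, with −0.25, and at −1.66 at 35 µg/ml. Atg41, which interacts with Atg9 and is induced by starvation, did not share this course. The ATG41 strain (YPL250C) was at −0.05, −0.08, −0.02, 0.15, 0.16, 0.68, 1.67, 1.70, 1.83 and 1.67 from 0 to 40 µg/ml. It was level with the median strain up to 15 µg/ml and 1.67 to 1.83 above it from 25 µg/ml on.

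Atg14 and Atg38 belong to the phosphatidylinositol 3-kinase complex that marks the site where autophagosomes form. ATG14 was at −1.71 at 5 µg/ml and between −1.03 and −0.56 on all later arrays except that at 25 µg/ml, where it was at 0.12. ATG38 had 0.19 on the 5 µg/ml array and its highest value, 1.10, on the 25 µg/ml array. The members of this complex without an ATG symbol are given further on.

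The conjugation machinery attaches the ubiquitin-like Atg8 to lipid. Atg8 is cut by the protease Atg4, activated by Atg7 and carried by Atg3, and a conjugate of Atg12, Atg5 and Atg16, made with the help of Atg10, acts as its ligase. The ATG8 strain (YBL078C) was at −0.20, 0.01, −3.64, −1.85, −1.86, −1.71, −1.53, −1.93, −2.36 and −1.32 from 0 to 40 µg/ml. It lay 12.5-fold below the median strain at 5 µg/ml, 11th lowest of 5325 strains, and was at least 2-fold below on all 8 arrays from 5 µg/ml on. Its 12 spots had deposited ratios between 0.06 and 0.09 at 5 µg/ml. The strains lacking the enzymes that conjugate Atg8 did not share this level: at 5 µg/ml they ranged from −0.69 in ATG3 and −0.67 in ATG7 over −0.57 in ATG4, −0.38 in ATG5, −0.22 in ATG12 and −0.12 in ATG16 to 0.47 in ATG10. As means of their spots, ATG3, ATG5, ATG7, ATG12 and ATG16 stayed within 2-fold of the median strain on all 10 arrays. Of the 36 ATG strains 30.6% did so, and of all strains 37.1%. In the second section alone ATG3 was at −1.05 at 5 µg/ml, ATG5 at −1.69 at 10 µg/ml and ATG12 at −1.11 at 1 µg/ml. The first section had −0.33, 0.19 and −0.09 there.

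ATG4 departed from the other conjugation strains late in the course. The ATG4 strain (YNL223W) was at 0.31, 0.65, −0.57, −0.30, −0.59, −0.37, −0.38, −1.77, −3.12 and −0.75 from 0 to 40 µg/ml. The low values were those at 30 and 35 µg/ml, and the 40 µg/ml array did not continue them. At 35 µg/ml its 12 spots spread over deposited ratios from 0.03 to 0.58, with a mean of −4.54 in the first section and −1.69 in the second.

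In the vacuole the lipase Atg15 opens the delivered membrane, Atg42 is a carboxypeptidase, and Atg22 exports amino acids. All 3 of these strains were at least 2-fold above the median strain at 40 µg/ml, at 1.98 for ATG15, 1.46 for ATG22 and 1.36 for ATG42, on an array where 19.3% of all strains were. The ATG22 strain (YCL038C) was at 0.16, 0.24, 0.52, 0.18, 0.21, 0.32, 0.86, 1.37, 0.93 and 1.46 from 0 to 40 µg/ml, above the median on every array. ATG15 was also high at 5 µg/ml, with 1.30. ATG42 was between −0.25 and 0.44 on the 9 arrays below 40 µg/ml. Over all 36 ATG strains, 7 (19.4%) were at least 2-fold above the median strain at 40 µg/ml, and 6 (16.7%) were at least 2-fold below it, where 18.1% of all strains were. The others above were ATG19, ATG36, ATG39 and ATG41, and those below were ATG8, ATG9, ATG11, ATG20, ATG23 and ATG34.

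**Figure D2:**
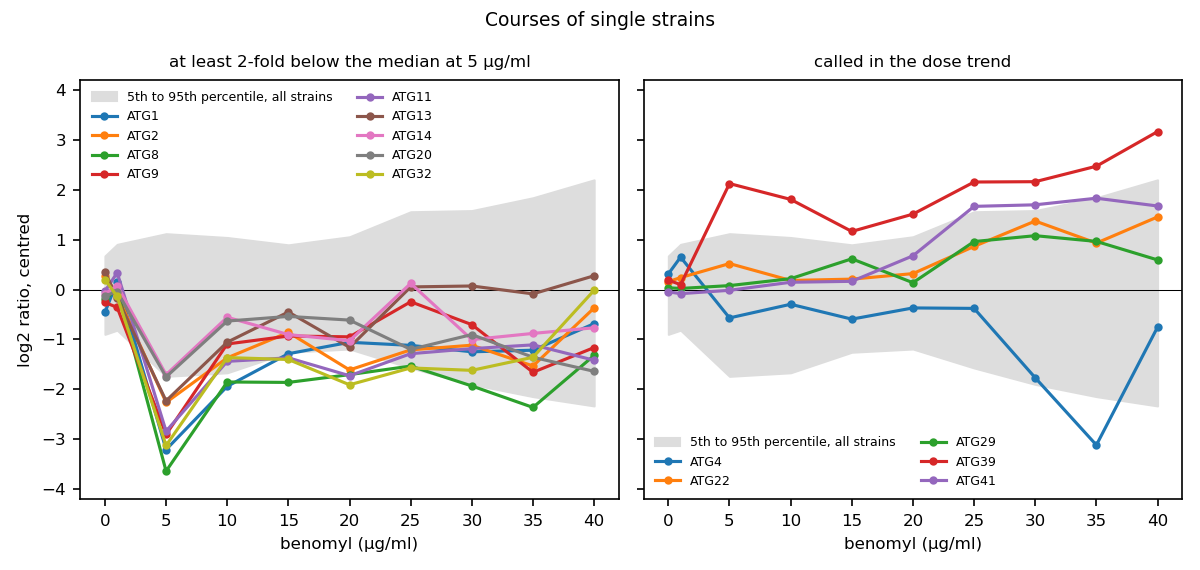
Log2 ratio, centred on the array median, against benomyl dose (µg/ml). Left, the 9 strains at least 2-fold below the median strain at 5 µg/ml. Right, the 5 strains called in the dose trend. The grey band runs from the 5th to the 95th percentile of all strains. ATG8 reaches −3.64 at 5 µg/ml, and ATG39 leaves the band upwards at 5 µg/ml, with 2.12.

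Among the selective autophagy genes, ATG11 followed ATG1 and ATG8. Atg11 is the scaffold that gathers receptor-bound cargo and activates Atg1 in growing cells. The ATG11 strain (YPR049C) was at −0.03, 0.34, −2.84, −1.44, −1.37, −1.73, −1.29, −1.18, −1.11 and −1.42 from 0 to 40 µg/ml. It was at least 2-fold below the median strain on all 8 arrays from 5 µg/ml on, as ATG8 was. Atg32 is the receptor for mitochondria and Atg33 another mitochondrial protein of mitophagy. ATG32 was at −3.13 at 5 µg/ml, at −1.91 to −1.36 from 10 to 35 µg/ml and at −0.02 at 40 µg/ml. As a mean of its spots, ATG33 was at −0.98 at 5 µg/ml and within 2-fold of the median strain throughout. Its spots at 5 µg/ml were at −0.63 in the first section and −1.34 in the second.

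The receptors for other cargo did not dip. Atg19 and Atg34 are receptors for vacuolar enzymes, and at 5 µg/ml their strains were at 0.51 and 0.23. The spots of ATG34 disagreed there, at −0.26 in the first section and 0.72 in the second. ATG34 had its lowest values at the ends of the course, −1.09 on the array without drug and −1.03 at 40 µg/ml. ATG40, the receptor for endoplasmic reticulum, was at −0.03 at 5 µg/ml and within 2-fold of the median strain on every array. The ATG36 strain (YJL185C), which lacks the peroxisome receptor, was at 0.20, −0.26, 0.06, −0.21, −0.49, −0.34, 0.30, 0.75, 0.39 and 2.46, so that only the 40 µg/ml array stood out. ATG45, a gene of glycogen autophagy, had 0.26 on the 5 µg/ml array and 1 high value, 1.55 on the 35 µg/ml array.

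ATG39, whose product is the receptor for nuclear envelope and endoplasmic reticulum around the nucleus, went the opposite way from ATG1 and ATG8. The ATG39 strain (YLR312C) was at 0.19, 0.10, 2.12, 1.81, 1.16, 1.51, 2.16, 2.16, 2.47 and 3.17 from 0 to 40 µg/ml. At 5 µg/ml it lay 4.36-fold above the median strain and at the top dose 8.97-fold, and every array with at least 5 µg/ml was above both arrays with less. One of its neighbours in the R64 annotation is MRPL15, for a mitochondrial ribosomal protein, and the MRPL15 strain was also high, with 1.18 on the 5 µg/ml array and 1.78 at the top dose. The fitted change of MRPL15 with dose was 2.07 ± 0.57 (SE, adjusted p = 0.0279), and the part of the neighbouring gene in the ATG39 values was not tested. The strain of the other neighbour, CDC25, was low, with −0.85 on the 5 µg/ml array and −1.15 at the top dose.

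Of the membrane factors of the Cvt pathway, the sorting nexin gene ATG20 was the only one among the low strains at 5 µg/ml. ATG20 had −1.75 there and −1.64 at the top dose. The phosphoinositide-binding ATG21 was at 0.29 at 5 µg/ml, ATG23, which works with Atg9, at −0.20, and the membrane protein gene ATG27 at 0.00. At 40 µg/ml ATG23 was at −1.40, but its fitted change with dose differed in sign between the sections of the array, 1.05 ± 0.28 against −1.58 ± 0.93 (SE). ATG26, a sterol glucosyltransferase gene that bulk autophagy in this yeast does not need, stayed between −0.86 and 0.28.

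The dose trend asked whether a strain's ratio moved steadily with dose. A straight line over the 10 arrays was fitted for each strain with limma, and its change is given from 0 to 40 µg/ml; a strain was called when the Benjamini-Hochberg adjusted p over all 5325 strains was below 0.05. Of the 36 ATG strains 4 rose (11.1%), against 10.3% of all strains, and 1 fell (2.78%), against 9.13%. ATG41 rose by 2.22 ± 0.31 (SE, adjusted p = 0.00107), ATG39 by 2.27 ± 0.50 (adjusted p = 0.00888), ATG22 by 1.20 ± 0.30 (adjusted p = 0.0163) and ATG29 by 0.95 ± 0.29 (adjusted p = 0.0421). ATG4 was the strain that fell, with −2.16 ± 0.65 (adjusted p = 0.0380). The share called upwards was close to that of all strains. At an unadjusted p below 0.05 in limma 11 of the 36 rose and 2 fell, where 18.8% and 14.6% of all strains did. ATG36, at 1.63 ± 0.56 (adjusted p = 0.0638), and ATG31, at 1.12 ± 0.43 (adjusted p = 0.0872), were not called. None of the 9 strains low at 5 µg/ml was called: ATG1 was at 0.16 ± 0.78, ATG8 at −0.74 ± 0.86 and ATG20 at −1.01 ± 0.44 (adjusted p = 0.134).

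ATG41 kept its dose trend call without each array in turn, at 2.13 to 2.46. ATG39 and ATG22 were not called without the 40 µg/ml array. The call of ATG4 was lost without the array at 0, 1, 10, 15, 30 or 35 µg/ml, with changes from −3.00 to −1.41 over all 10 arrays left out. The call of ATG29 was lost without any array but that at 20 or 40 µg/ml, with changes from 0.85 to 1.25. With days of selection as a covariate none of the 5 was called, and ATG41 was at 1.67 (adjusted p = 0.209).

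The arrays of 4 days were also set against those of 2 days, which asks for no straight line. ATG41 rose by 1.51 ± 0.26 (SE, adjusted p = 0.0330), the only one of 36 (2.78%), against 0.864% of all strains. No ATG strain fell in limma, where 0.263% of all strains did; 1 of the 36 had an unadjusted p below 0.05 downwards and 5 upwards, where 453 and 585 of all 5325 strains did. The call of ATG41 was lost without 7 of the 9 arrays, those at 0, 1, 5, 25, 30, 35 and 40 µg/ml, at changes of 1.43 to 1.72.

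The step to 5 and 10 µg/ml from 0 and 1 µg/ml, all arrays of 2 days, was tested in a fit of 5 pairs of neighbouring doses. Of the ATG strains 3 fell and 1 rose. The changes of those that fell were −2.65 ± 0.56 (SE) for ATG8 (adjusted p = 0.0421), −2.43 ± 0.44 for ATG1 (adjusted p = 0.0268) and −2.29 ± 0.44 for ATG11 (adjusted p = 0.0321). That is 8.33% of the 36 ATG strains, against 2.55% of all strains. ATG39 rose by 1.82 ± 0.31 (adjusted p = 0.0209), which is 2.78% of the ATG strains, against 1.18% of all strains. For each of these 4 strains both arrays of the higher pair lay outside the range of the lower pair, as they did for every other strain with a dip. The same arrays gave the calls, so this is no separate support. The other strains with a dip were not called: ATG32 was at −2.28 ± 0.60 (adjusted p = 0.0799), ATG2 at −1.90 ± 0.47 (adjusted p = 0.0670), ATG13 at −1.74 ± 0.43 (adjusted p = 0.0678), ATG9 at −1.69 ± 0.52 (adjusted p = 0.124), ATG14 at −1.13 ± 0.46 (adjusted p = 0.232) and ATG20 at −1.11 ± 0.37 (adjusted p = 0.149).

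These calls leaned on few arrays. ATG1 and ATG11 were not called without the array at 0, 1, 5, 15 or 20 µg/ml, with changes of −3.06 to −1.79 and −2.99 to −1.59 over all arrays left out. ATG8 was called only without the 10 µg/ml array, with changes of −3.55 to −1.76. ATG39 was not called without the array at 0, 1 or 5 µg/ml, with changes of 1.66 to 1.98. Without the 10 µg/ml array 7 ATG strains fell, namely ATG1, ATG8, ATG9, ATG11, ATG13, ATG20 and ATG32, and without the 5 µg/ml array none did. In the second section of the array alone ATG1 had an adjusted p of 0.0734, ATG8 of 0.0777 and ATG11 of 0.0878, and ATG39 was called in neither section alone.

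**Figure D3:**
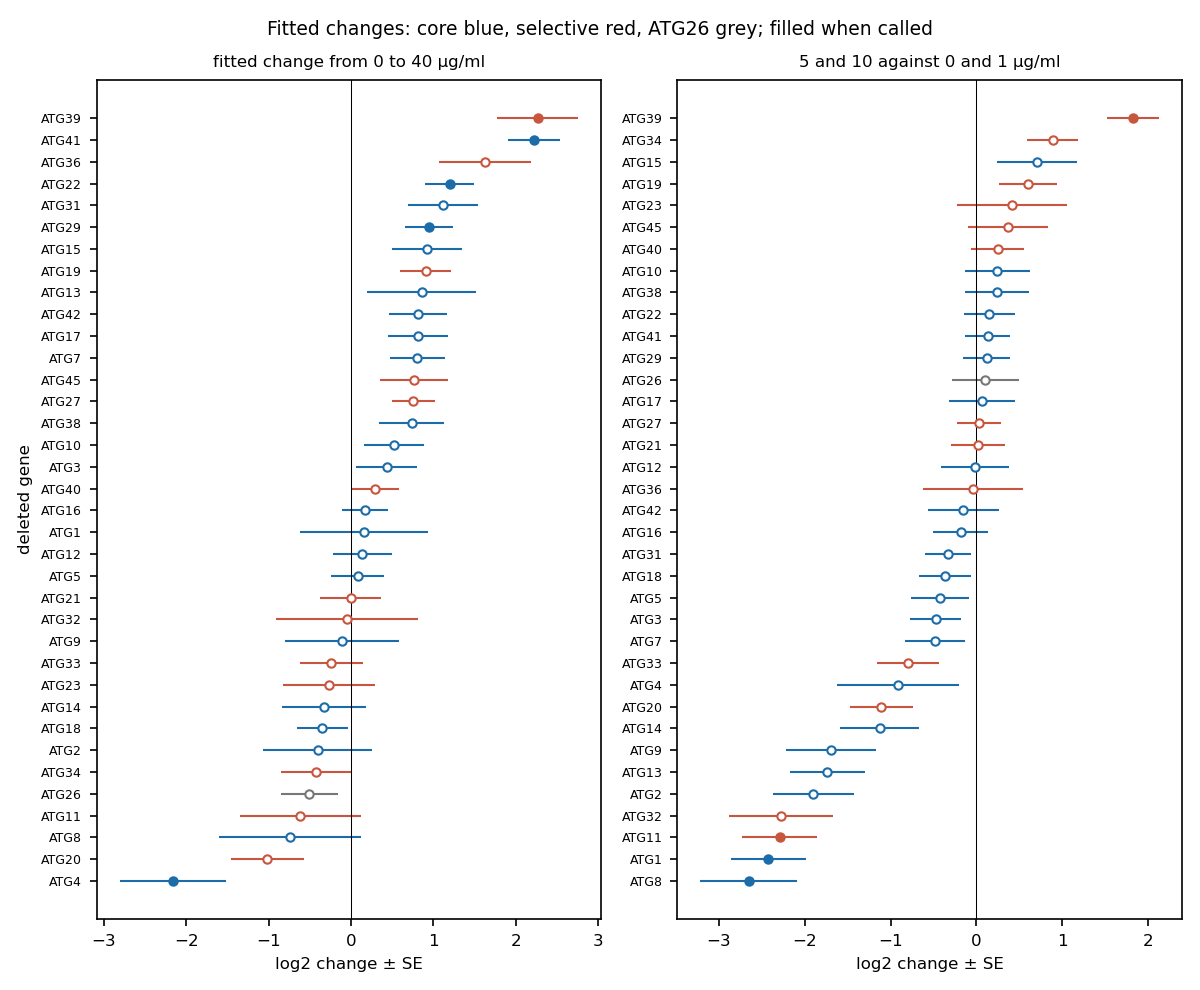
Fitted log2 change ± SE of each ATG strain (vertical axis). Left, from 0 to 40 µg/ml in the dose trend. Right, 5 and 10 against 0 and 1 µg/ml. Core genes are blue, selective genes red and ATG26 grey, and filled points are called. ATG39 has the highest change in both panels, 2.27 and 1.82, and the strains with the lowest change are ATG4 on the left and ATG8 on the right.

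The top doses were then set against the dip, as 35 and 40 against 5 and 10 µg/ml. This comparison shares the arrays at 5 and 10 µg/ml with the step before it, so that a low value there moves both. ATG13 rose by 1.74 ± 0.43 (SE, adjusted p = 0.0361; 2.22 in the first section and 1.25 in the second, not called in either alone), ATG41 by 1.69 ± 0.26 (adjusted p = 0.00640) and ATG1 by 1.62 ± 0.44 (adjusted p = 0.0471), which is 8.33% of the ATG strains, against 6.7% of all strains. No ATG strain fell in limma, where 4.94% of all strains did. At an unadjusted p below 0.05 in limma 1 of the 36 fell and 11 rose, where 11.7% and 15.6% of all strains did. ATG8 and ATG11 were not called, at 0.90 ± 0.56 and 0.88 ± 0.44, and neither was ATG32, at 1.56 ± 0.60 (adjusted p = 0.139). The call of ATG1 was lost without any array but that at 10 µg/ml, with changes of 0.99 to 2.26. That of ATG13 was lost without the array at 5, 15, 20, 25, 30, 35 or 40 µg/ml, with changes of 1.15 to 2.33, and ATG41 was called without each array in turn, at 1.61 to 1.77. With arrays scaled to equal spread, or with quantile normalization, none of the 3 was called.

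Both the core and the selective list held strains that dipped and strains that did not. At 5 µg/ml 6 of 22 core strains (27.3%) and 3 of 13 selective strains (23.1%) were at least 2-fold below the median strain, and the list medians were −0.30 and 0.00, beside 0.04 for all strains. For the step to 5 and 10 µg/ml the median change was −0.35 for the core strains, 0.03 for the selective strains and 0.03 for all strains, with 2 core strains fallen, and 1 selective strain fallen and 1 risen. For the dose trend the medians were 0.48, −0.00 and 0.09, with 3 core strains risen and 1 fallen, and 1 selective strain risen. Without the bulk scaffold and vacuolar strains the core median of the dose trend was 0.15, near that of all strains. The difference between the lists was not tested, and the lists were drawn up with results of these data known.

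**Figure D4:**
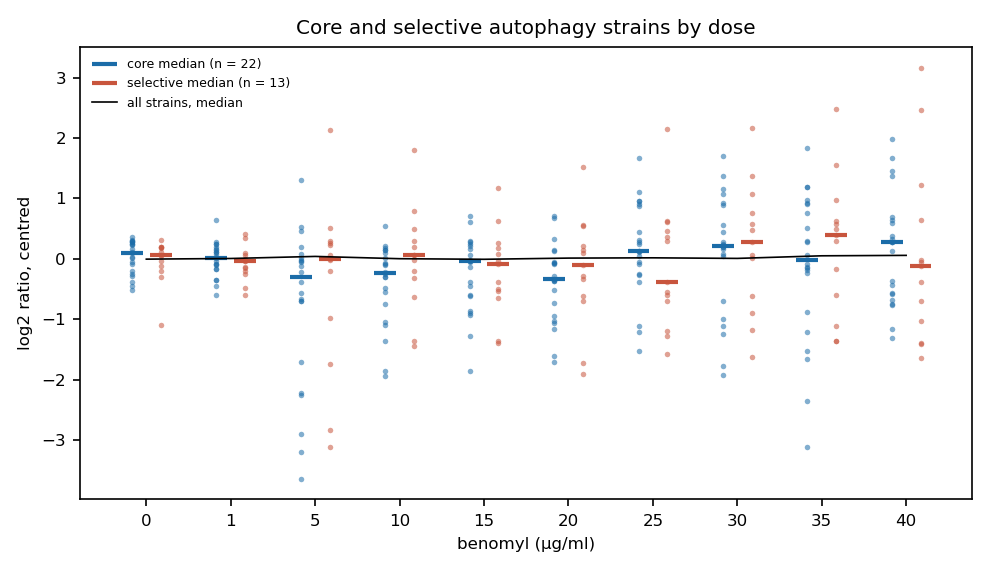
Log2 ratio, centred on the array median, of the 22 core (blue) and 13 selective (red) autophagy strains at each benomyl dose (µg/ml). Points are strains, bars are list medians and the black line is the median of all strains. At 5 µg/ml both lists have strains below −2.8, and the core median is −0.30.

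Each array holds its named spots in a first and a second section of the layout, taken here to carry the different tags of a strain, which the annotation does not mark. For the step to 5 and 10 µg/ml the changes in the sections had a correlation of 0.91 over the 36 ATG strains and 0.41 over 5315 strains, with the same sign in 30 of 36. This is a description across strains that share the arrays and pools. ATG1 changed by −2.44 in the first section and by −2.42 in the second, ATG8 by −2.57 and −2.74, ATG11 by −2.74 and −1.85, and ATG39 by 1.78 and 1.87. On the 5 µg/ml array every strain of the dip was at least 2-fold below the median strain in both sections. These strains had been picked by the mean of both sections on that array, so this is no separate support. For the dose trend the correlation over the ATG strains was 0.57, with the same sign in 26 of 36, and ATG17 had the widest gap, 3.86. ATG41 was at 2.08 and 2.37, and ATG4 at −2.67 and −1.63.

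**Figure D5:**
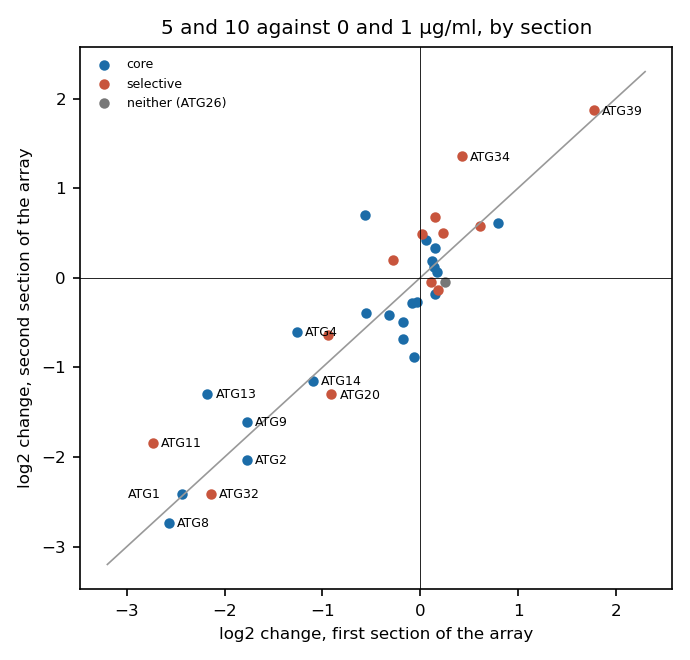
Log2 change from 0 and 1 to 5 and 10 µg/ml in the first (horizontal) and second (vertical) section of the array for the 36 ATG strains. The grey line marks equal change. ATG1, ATG8, ATG11 and ATG32 lie together at the lower left in both sections, and ATG39 is alone at the upper right.

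The deletion of a gene can also remove part of its neighbour, so the neighbouring strains are given for the members that dipped and for some others. The neighbours of ATG1 were at −0.15 (GTS1) and −0.56 (TOS3) at 5 µg/ml, and those of ATG11 at 0.37 (TAH18) and 0.28 (MAK3). ATG9 and ATG32 had neighbours between −1.04 and −0.22, and those of ATG20 were at 0.11 (YDL114W) and 0.24 (TRM3). For these 5 members, and also for ATG2 and ATG8, both neighbours were nearer to the median strain than the member. The members had been picked for low values on this array, so nearer neighbours were to be expected. The part of the neighbours was not tested. A neighbour needed for haploid growth would be expected to show background alone, and apart from PZF1 such neighbours are not marked here. ATG2 lies between SLA2, an endocytosis gene, at −0.76, and ZWF1, which encodes glucose-6-phosphate dehydrogenase, at −1.88. In the step to 5 and 10 µg/ml SLA2 was at −2.03 ± 0.55 (SE, adjusted p = 0.0876), and the change of ZWF1 with dose was −2.38 ± 0.71 (adjusted p = 0.0371). ATG8 lies beside NUP170, a nuclear pore gene, whose strain was at −3.04 at 5 µg/ml and whose fitted change with dose was −4.71 ± 0.89 (SE, adjusted p = 0.00437). ATG13 lies beside PZF1, a transcription factor gene needed for growth, at −2.92, and ATG14 beside VMA2, a vacuolar ATPase gene, at −2.55. Unlike ATG13 and ATG14, both neighbours were called in limma in the step to 5 and 10 µg/ml. PZF1 fell by −2.87 ± 0.49 (SE, adjusted p = 0.0215) and VMA2 by −2.06 ± 0.40 (adjusted p = 0.0330). The other neighbours of ATG8, ATG13 and ATG14 were at 0.02 (ILS1), 0.17 (GDB1) and 0.17 (OPY1) at 5 µg/ml, and none of them was called in that step. The part of the low neighbours in the values of ATG2, ATG8, ATG13 and ATG14 was not tested. For ATG27 the neighbour was far from the member: PFD1, a prefoldin gene, was at 4.00 at 5 µg/ml and ATG27 at 0.00. ATG29, called in the dose trend, overlaps SET6, whose fitted change with dose was 1.05 ± 0.35 (SE, adjusted p = 0.0541). Its flanking neighbours MLH3 and REV3 were at 1.64 ± 0.40 (adjusted p = 0.0148) and 0.36 ± 0.26. ATG42, high at 40 µg/ml only, lies beside IRA1, at 2.67 on that array, and YBR138C, at −0.15. ATG19, at 1.22 on the 40 µg/ml array, lies between IRA2, at 3.65 there, and ATG34, at −1.03. The fitted change of IRA2 with dose was 3.92 ± 1.13 (SE, adjusted p = 0.0324). The neighbours of ATG4, ATG22 and ATG41 that are on the array were not called in the dose trend. The part of these neighbours was not tested.

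Strains that lack a gene needed for haploid growth are not expected to grow in either pool, which was not measured here, and their ratios are given as a background. Of 22 such genes of membrane traffic and TOR signalling, 4 were at least 2-fold below the median strain at 5 µg/ml, among them SEC23 at −3.29 and YPT1 at −2.99, where 12.1% of all strains were, and 3 were at least 2-fold above, where 6.29% were. None of the 22 was called in limma in the dose trend, where 0 rose and 2 fell at an unadjusted p below 0.05. None was called in the step to 5 and 10 µg/ml either, where 2 rose and 3 fell at that level. PZF1, the neighbour of ATG13 that is needed for growth but is outside these 22, was called as fallen in that step. In 35 and 40 against 5 and 10 µg/ml SEC4 was called in limma, with −1.97 ± 0.40 (SE, adjusted p = 0.0185). That is 4.55% of the 22 fallen, against 4.94% of all strains. On the 5 µg/ml array ATG1, at −3.21, lay between SEC23 and YPT1, and ATG8, at −3.64, lay below all 22. The signal of each colour was not used here, so it is not known how bright the spots of the ATG strains were.

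Of 51 further genes of the pathway without an ATG symbol, 5 rose (9.80%) and 7 fell (13.7%) in the dose trend, beside 10.3% and 9.13% of all strains. RIM15, a kinase gene of entry into quiescence under TOR control, rose by 4.58 ± 0.93 (SE, adjusted p = 0.00598): it was at −0.97 to −0.10 up to 20 µg/ml and at 2.88 to 3.79 from 25 µg/ml on. VPS34, the phosphatidylinositol 3-kinase, rose by 2.96 ± 0.46 and its regulator VPS15 by 1.94 ± 0.47. The kinase genes HOG1 and PBS2 of the osmotic stress pathway rose by 1.43 ± 0.33 and 1.29 ± 0.40. The strains that fell included the transcription regulator UME6, with −1.97 ± 0.39, CCZ1 and MON1, which together activate the vacuolar fusion GTPase Ypt7, with −1.81 ± 0.41 and −1.69 ± 0.34, the membrane fusion regulator VPS45, with −1.58 ± 0.31, and the kinase TOR1, with −1.44 ± 0.28. VPS41 and ARL1 also fell. None of the 51 was called in the step to 5 and 10 µg/ml in limma, where 2 rose and 8 fell at an unadjusted p below 0.05, beside 7.04% and 11.8% of all strains.

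Partners of the dipping members could be followed in this list. VPS30, the former ATG6, forms the kinase complex with Vps34, Vps15 and Atg14, and its strain had −1.65 on the 5 µg/ml array and 1.76 at the top dose. At 5 µg/ml VPS34 had 0.63 and VPS15 −0.59, against −1.71 for ATG14, and their values at the top dose were 2.95 and 2.09. SNX4, the former ATG24, pairs with Atg20 and had −1.79 on the 5 µg/ml array and −1.98 at the top dose, beside −1.75 and −1.64 for ATG20. VAC8, a vacuole membrane protein gene whose product binds Atg13, was at −3.79 at 5 µg/ml and between −2.30 and −1.03 afterwards. Its change in the step to 5 and 10 µg/ml, −2.47 ± 0.73 (SE), was not called (adjusted p = 0.109). PEP4, the main vacuolar protease gene, had 0.27 on each of the arrays with 5 and 40 µg/ml. PRB1, another vacuolar protease gene, was low on the 5 µg/ml array, with −1.55, and had −0.49 at 40 µg/ml.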

How the data were processed

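Tag ratios were measured on 10 two-colour arrays, 1 per benomyl dose. The authors deposited 1 table of log2 ratios for 22575 spots; images were read with GenePix 5.1, per the labels' protocols, and normalization and numerator are not given in the sources used here. Of these spots, 18794 carry a gene name, and 5325 strains resulted. The symbols of 4 genes could not be updated. Left out were 2539 spots without a value, and 18 values coded as a ratio of 1000000, a choice made after seeing them. Ratios come in steps of 0.01 on all arrays but that at 10 µg/ml. Each array was centred on the median of its named spots (−0.0801 to 0.189), and spots were averaged per strain. Depth is unknown, precision is limited by how many arrays there were, and p-values measure the spread between these arrays around each fit.

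Fits used limma 3.58.1 in R 4.3.3 (lmFit, eBayes), with Benjamini-Hochberg adjustment over all 5325 strains and a threshold of 0.05. The line left 8 residual degrees of freedom and the 5 dose pairs 5. The fits were tested on simulated data. Neighbours are those of RefSeq assembly R64. Every member was named; values on every array were given for members called in a comparison and for the 6 largest dose changes. Pathway genes called in the dose trend were named up to the 10 largest, and other pathway, neighbour and background strains were chosen after their values were seen. The members and lists were chosen with earlier results of these data known. Alternatives were centring, spread, quantile normalization, sections, spot medians, dose scale, days, variance model and leaving out each array.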

Additional observations from a re-analysis of the deposited data

Results flagged for a closer look

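For each ATG strain the 4 arrays of 2 days and the 5 arrays of 4 days were searched for an array far from the others, 72 sets in all. In 4 sets the gap to the nearest other array was too large a part of the range by Dixon's test, and chance alone gives about 1 such set in 20. The arrays of a set differ in dose, so they are not replicates. ATG10 was at 1.19 at 35 µg/ml, with the other 4-day arrays between −0.08 and 0.28. ATG13 was at −1.16 at 20 µg/ml, with the others between −0.09 and 0.28. ATG14 was at 0.12 at 25 µg/ml, with the others between −1.03 and −0.77. ATG41 was at 0.68 at 20 µg/ml, with the others between 1.67 and 1.83.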

How the results depend on the processing

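No called change of an ATG strain reversed its sign under any alternative run. In the dose trend, 4 risen and 1 fallen ATG strains became 8 and 1 on the ratios as deposited, where the median of all strains moved from 0.09 to 0.33. They became 1 and 0 with equal spread of the arrays, 1 and 0 with quantile normalization, 5 and 2 in the first section, 4 and 0 with spot medians, 2 and 0 on log2(dose + 1), and 0 and 0 within the 4-day arrays, within the 2-day arrays and with days added as a covariate. The 2 fallen in the first section were ATG17 and ATG18, not ATG4. For 4 against 2 days, the 1 risen strain became 0 in the first section and 0 with robust variances and trend. For 5 and 10 against 0 and 1 µg/ml, the 1 risen strain became 2 with quantile normalization, and 0 in the first section, 0 in the second and 0 with robust variances; the 3 fallen became 0 in the second section and 1 with robust variances. For 35 and 40 against 5 and 10 µg/ml, the 3 risen became 5 as deposited, 0 with equal spread, 0 with quantile normalization and 1 in the first section, and the 0 fallen became 1 in the second section, ATG34. With equal spread the strains at least 2-fold from the median at 40 µg/ml changed from 7 above and 6 below to 4 and 1. Leaving out 1 array at a time gave 2 to 4 risen and 0 to 2 fallen in the dose trend, 0 to 4 and 0 to 0 for 4 against 2 days, 0 to 1 and 0 to 7 for the step to 5 and 10 µg/ml, and 1 to 4 and 0 to 1 for the top doses. The cause of these moves was not tested, except that leaving out arrays or a section removes data. The median differences between core and selective strains, 0.48 and −0.38, ranged over 0.15 to 0.48 and −0.51 to −0.28. No paired analysis was possible because each dose has 1 array. With 1 array a dose, a dip at 5 µg/ml cannot be told apart from a property of that array.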
